A study of Homo sapiens with 4 samples.

Results

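Complement is a cascade of plasma proteases, pore-forming proteins and control proteins. Its genes were followed here in HuH7 cells that expressed short hairpin RNA against MKL1 and MKL2. A list of 36 genes of complement components, regulators and receptors was used, chosen with earlier results of these data known. Of them, 35 were measured among the 18417 genes tested, and CFHR5 was not analysed here. Each gene was read from the probe whose platform annotation lists that gene alone, and where a gene had several such probes, from the one that was brightest on average. HuH7 is a human hepatocellular carcinoma line. The tested group was 2 cultures that stably expressed short hairpin RNA (shRNA) against MKL1 and MKL2, and the other group was 2 cultures that stably expressed a control shRNA. All 4 cultures were infected with virus made from pLKO.1 vectors, selected with puromycin for 7 days, grown in 10% serum and used before passage 10. MKL1 and MKL2 are older names of MRTFA and MRTFB, cofactors of serum response factor (SRF) that respond to the state of actin. The titles call the cultures biological replicates but do not say whether each came from its own infection, so the p-values measure the spread between these samples.

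Complement is started by 3 routes that meet at C3. In the classical route C1q binds antibody or a surface and activates the proteases C1r and C1s, which cleave C4 and C2. In the lectin route mannose-binding lectin and the ficolins act through the MASP proteases on the same substrates. The alternative route uses factor B, factor D and properdin to amplify C3 cleavage, and C5 to C9 then build the membrane attack complex. Soluble and membrane-bound regulators hold the cascade in check. Hepatocytes make most of the plasma components, whereas C1q, properdin and C7 come largely from other cells.

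The sequences before the starts of CFB, CFI and MBL2 are shown because CFI passed the test described below and CFB and MBL2 had the largest differences among members that did not pass; in all 3 both knockdown arrays lay above both controls. Each is the 250 bases before the listed start from RefSeq's promoter table (build GRCh38.p14), read on the strand of the gene. CFB lies at chr6:31945845-31946094 (plus strand), CFI at chr4:109802000-109802249 (minus strand) and MBL2, at the outer of its 2 listed starts, at chr10:52772785-52773034 (minus strand). Capitals mark matches to the motifs searched.
CFB: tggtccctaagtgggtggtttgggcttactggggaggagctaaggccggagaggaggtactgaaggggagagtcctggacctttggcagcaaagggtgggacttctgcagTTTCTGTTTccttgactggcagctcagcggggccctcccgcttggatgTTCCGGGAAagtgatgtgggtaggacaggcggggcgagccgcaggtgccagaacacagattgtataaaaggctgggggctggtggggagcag
CFI: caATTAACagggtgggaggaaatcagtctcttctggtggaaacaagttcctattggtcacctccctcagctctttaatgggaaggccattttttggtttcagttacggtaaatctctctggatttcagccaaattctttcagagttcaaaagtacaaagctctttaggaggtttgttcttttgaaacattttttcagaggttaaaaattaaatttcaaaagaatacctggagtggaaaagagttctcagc
MBL2: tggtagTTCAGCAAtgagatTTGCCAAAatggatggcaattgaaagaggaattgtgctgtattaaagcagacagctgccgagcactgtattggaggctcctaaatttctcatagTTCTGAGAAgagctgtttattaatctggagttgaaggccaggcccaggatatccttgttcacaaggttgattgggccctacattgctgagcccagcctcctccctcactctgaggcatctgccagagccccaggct
The capitals in CFB are an ISRE core 140 to 132 bases before the start and a STAT site 92 to 84 bases before it. Those in MBL2 are a C/EBP core from base 244 to 237, another from 230 to 223 and a STAT site from 136 to 128. The window before the other listed MBL2 start, not shown, holds no STAT site or C/EBP core. It holds HNF1 half-sites from base 33 to 28 and 23 to 18, and a TEAD site from 145 to 140. The CFI window holds an HNF1 half-site, 248 to 243 bases before the start.

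Both strands were searched for 8 motifs: TTCNNNGAA (STAT site), TTTCNNTTT (ISRE core), TTGCNNAA (C/EBP core), GTTAAT (HNF1 half-site), CAAAGTCC (HNF4 core), GGAATG (TEAD site), the NF-kB site and the CArG box, which SRF binds. Of the 36 listed genes, 29 were searched, in 42 windows, some of which overlap. The STAT site was in 11 of these windows (26.2%), of 9 genes, and in 6.57% of all 35116 windows of the table. Overlapping windows of C1QA, and of CD59, held the same STAT site. The C/EBP core was also in 11 (26.2%), of 8 genes, against 9.05% of all windows. The TEAD site was in 6 (14.3%), against 11.9%, and the ISRE core in 5 (11.9%), against 9.2%. The HNF1 half-site was in 5 (11.9%), against 6.23%. No member window held the HNF4 core (1.02% of all windows) or the NF-kB site (5.21%). The CArG box was in 2 windows (4.8%), of C2 and C5, and in 1.16% of all windows. The C2 box is shown because C2 had the smallest p of the members. It lies 88 to 79 bases before the second of its 2 listed starts, within chr6:31900901-31900930 (plus strand), with the box in capitals.
C2: ctctttgaggCCTATTTTGGgctcaatgaa
Matches to different motifs may overlap each other. The 2 listed C2 starts are upstream ones, and any C2 start further downstream was not searched. Which start HuH7 cells use was not measured, and a match is no evidence of binding.

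The arrays had near-equal medians, between 5.68 and 5.73 on the log2 scale. The probe that lists MRTFA, and also RBM15, read 6.81 and 6.91 in the knockdown arrays, against 7.77 and 7.80 in the controls (limma adjusted p = 0.0404). MRTFB read 6.84 and 7.11 in the knockdown arrays, against 7.20 and 7.22 in the controls (limma adjusted p = 0.448). The hepatocyte marker ALB, serum albumin, lay at 12.32 and 12.43 in the knockdown arrays, against 12.25 and 12.18 in the controls. AFP, the fetal albumin-like protein made by liver tumours, read 11.96 and 11.86, against 12.26 and 12.19. The 11 measured hepatocyte markers had a mean log2 value of 11.008 and 11.016 in the knockdown arrays, against 11.036 and 10.997 in the controls. Limma called 0 of these 11. At an unadjusted limma p under 0.05, 1 was higher and 2 were lower, where 6.25% and 8.04% of all genes were. The higher one was ASGR1, a subunit of the asialoglycoprotein receptor, which read 7.23 and 7.18 in the knockdown arrays, against 6.32 and 6.39 in the controls (limma adjusted p = 0.0508). The lower ones were AFP and the keratin gene KRT18, which read 10.92 and 10.97 in the knockdown arrays, against 11.27 and 11.18 in the controls. Of 27 measured markers of macrophages, lymphocytes and granulocytes, endothelium, stellate cells, bile duct and red cells, 0 passed an adjusted p of 0.05. Unadjusted limma p-values were under 0.05 for 2 that were higher, AIF1 and PTPRC, and 1 that was lower, HBB. Among all genes these shares were 6.25% and 8.04%. The 27 markers had a mean log2 value of 5.90 and 5.73 in the knockdown arrays, against 5.72 and 5.76 in the controls. The 9 macrophage markers among them averaged 5.90 and 5.71 in the knockdown arrays, against 5.64 and 5.70 in the controls. They ran from PTPRC, at 3.22 and 2.96 in the knockdown arrays, against 2.78 and 2.80 in the controls, to LYZ, at 12.25 and 12.02 in the knockdown arrays, against 12.07 and 12.13 in the controls. CD163 read 3.52 in both knockdown arrays, against 3.55 and 3.52 in the controls, and CD68 read 9.42 and 8.46, against 8.74 and 8.91. The part of these markers in the complement values was not tested. All 4 cultures were of the HuH7 line, so the markers do not count cells of other types. In bulk RNA, a change in some HuH7 cells and one in all of them cannot be told apart.

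C2 and CFI rose in the knockdown cells, by 2.29-fold and 1.99-fold, and were the 2 members that passed an adjusted p of 0.05 in limma over all genes. This was 2 of 35 measured members, where 0.0814% of all genes tested passed as higher. No member passed as lower, where 0.0923% of all genes did. At an unadjusted p under 0.05 in limma, 9 members were higher and 0 lower, against 6.25% and 8.04% of all genes. The 7 beside C2 and CFI were C4BPB, MBL2, C1R, CFB, C6, C8A and CD46. Both knockdown arrays lay above both controls for 15 members, where this held for 22.5% of all genes. Both lay below for 0 members, against 23.0% of all genes, and the groups overlapped for the other 20. The log2 difference was positive for 31 of the 35 members (88.6%), against 51.9% of all genes. The members' median log2 difference was 0.18, against 0.01 for all genes. It was 0.24 in knockdown array 1 and 0.13 in knockdown array 2, each set against the control mean. A log2 difference above 0.5, a limit chosen after the values were seen, was reached by 9 members (25.7%) and by 1.82% of all genes. No member lay below -0.5.

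**Figure D1:**
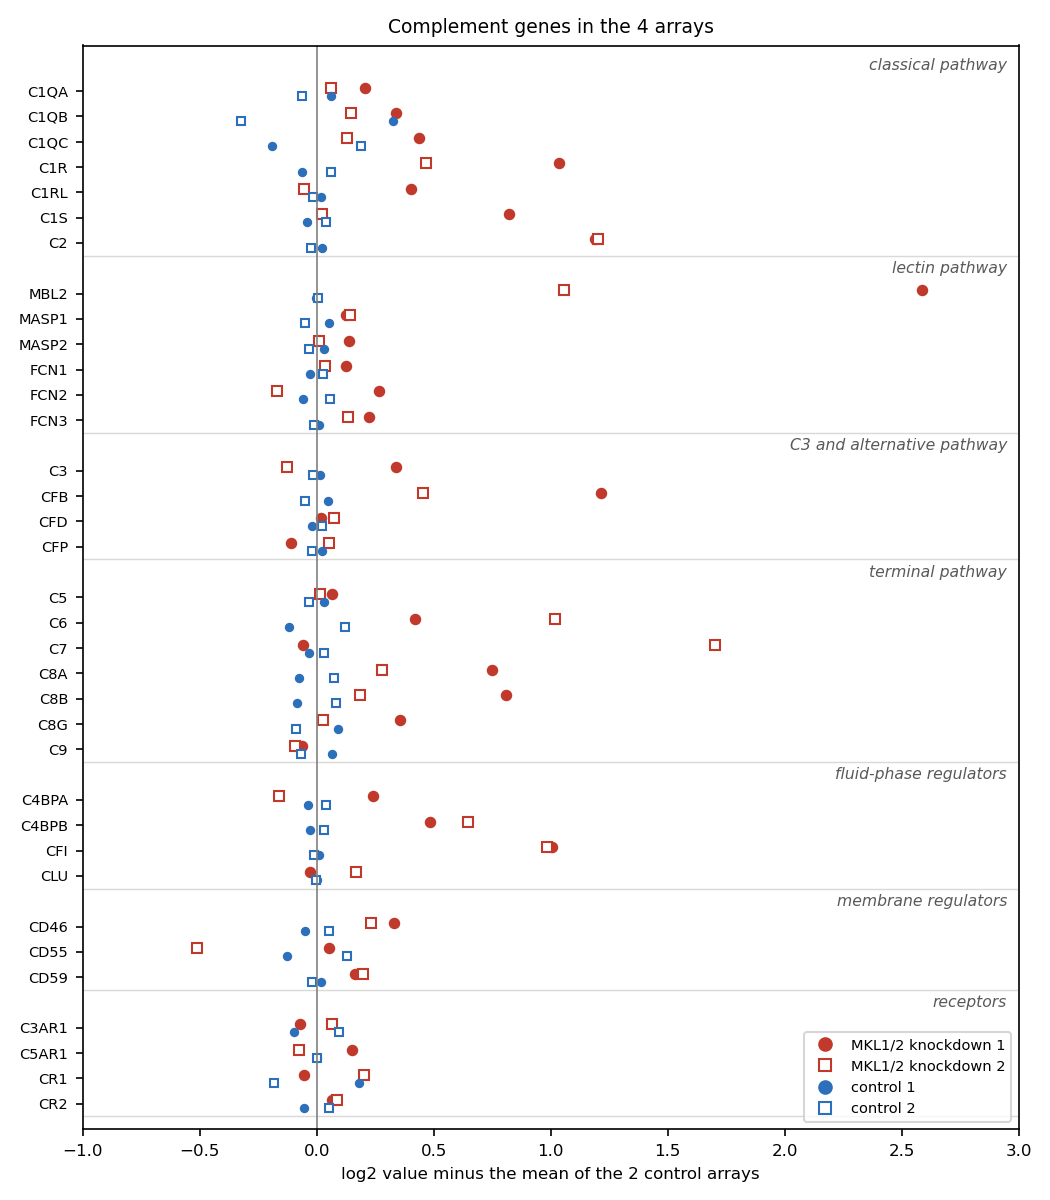
Log2 value of each array minus the mean of the 2 control arrays (horizontal axis) for the 35 measured complement genes, grouped by role (rows); red marks are the MKL1/2 knockdown arrays and blue marks the control arrays, filled circles for array 1 and open squares for array 2. The 2 red marks coincide for C2 and CFI near 1.2 and 1.0, and lie far apart for MBL2 and C7.

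In the classical route, C2, the protease that joins C4b to form the C3 convertase, read 7.55 and 7.56 in the knockdown arrays, against 6.38 and 6.34 in the controls. The knockdown arrays were alike (array 1 minus array 2 was -0.0145), and both were above both controls. Its log2 difference was 1.20 (SE 0.093, 95% interval 0.97 to 1.42, limma adjusted p = 0.0177), the 44th largest of all genes. Of its 3 probes, 2 held identical values, and the third read 7.52 and 7.57 in the knockdown arrays, against 6.38 and 6.31 in the controls. C1R, which encodes the protease that activates C1s, read 6.97 and 6.41 in the knockdown arrays, against 5.88 and 6.0 in the controls. Both knockdown values were higher, but they lay 0.57 apart, and the log2 difference of 0.75 (SE 0.189) did not pass (limma adjusted p = 0.187). C1S, the protease that cleaves C4 and C2, read 7.26 and 6.46 in the knockdown arrays, against 6.40 and 6.48 in the controls. Only knockdown array 1 stood above the controls, and the other lay between them. C1RL, a C1r-like protease, read 7.18 and 6.72 in the knockdown arrays, against 6.79 and 6.76 in the controls. Its knockdown array 1 lay above both controls and its array 2 below both.

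The C1q chains C1QA, C1QB and C1QC, which form the recognition unit, had log2 differences of 0.13, 0.24 and 0.28, and their groups overlapped. C1QB read 5.26 and 5.07 in the knockdown arrays, against 5.25 and 4.60 in the controls, so that its controls lay farther apart than its knockdown arrays. It was the 1 member whose controls differed by more than 0.5. C4, the partner of C2, is not a member, because its probes list C4A, C4B and C4B_2 together. The 3 such probes held identical values, 6.47 and 5.81 in the knockdown arrays, against 5.27 in both controls. Both knockdown values were higher, with a log2 difference of 0.87 (SE 0.212) that did not pass beside the 18417 genes (limma adjusted p = 0.178). C4A and C4B transcripts cannot be told apart on these probes.

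In the lectin route, MBL2, which encodes mannose-binding lectin, had the largest difference of the members, the 10th largest of all genes. It read 8.19 and 6.66 in the knockdown arrays, against 5.60 and 5.61 in the controls. Both knockdown arrays were above both controls, but they lay 1.53 apart, at 6.01 and 2.08 times the control mean. Its log2 difference was 1.82 (SE 0.446, 95% interval 0.74 to 2.91), and it did not pass (limma adjusted p = 0.178). MASP1, the lectin pathway protease gene, read 8.56 and 8.58 in the knockdown arrays, against 8.49 and 8.39 in the controls. Its log2 difference was 0.13 (SE 0.096), with an interval from -0.10 to 0.37. MASP2, the protease that cleaves C4 and C2 in this route, differed by 0.07, with an interval from -0.17 to 0.32. The ficolin genes FCN1, FCN2 and FCN3, whose products bind acetylated sugars, had log2 differences of 0.08, 0.05 and 0.18. FCN2 read 6.55 in knockdown array 1 and 6.12 in array 2, above and below both controls.

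Among C3 and the alternative route, CFB, the factor B protease of the C3 convertase, read 9.21 and 8.45 in the knockdown arrays, against 8.04 and 7.95 in the controls. Both knockdown arrays were higher, at 2.32 and 1.37 times the control mean. The log2 difference of 0.83 (SE 0.237) did not pass (limma adjusted p = 0.217). Its 3 probes lay at different levels but had the same order of arrays, with 9.12 and 8.35 on the second and 8.81 and 8.08 on the third in the knockdown arrays, against 8.0 and 7.89, and 7.79 and 7.66, in the controls. C3, on which the routes meet, read 11.73 and 11.27 in the knockdown arrays, against 11.41 and 11.38 in the controls. The knockdown arrays lay on either side of the controls, and the interval of the log2 difference ran from -0.29 to 0.50. CFD, the protease that cleaves factor B, differed by 0.05 (interval -0.18 to 0.27). CFP, which encodes properdin, differed by -0.03 (interval -0.28 to 0.22).

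**Figure D2:**
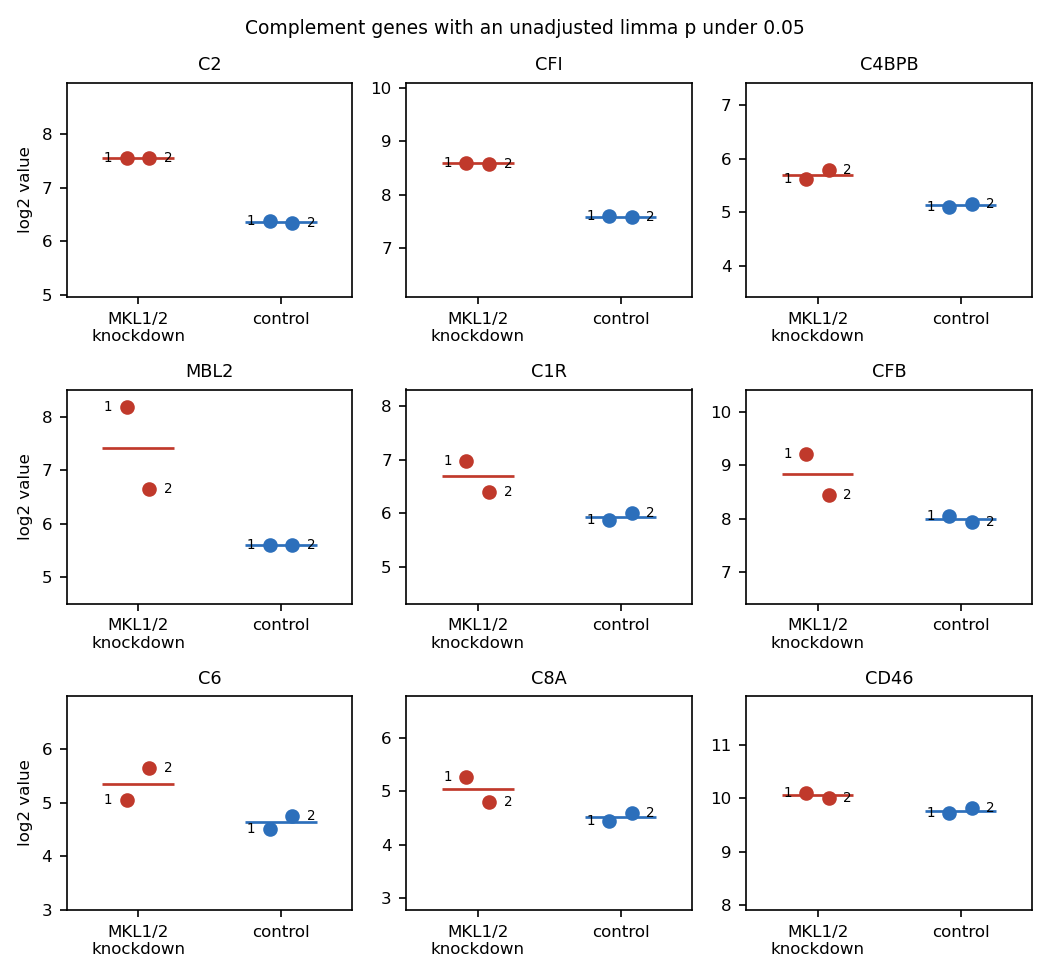
Log2 value of each array for the 9 complement genes with an unadjusted limma p under 0.05, MKL1/2 knockdown arrays in red on the left and control arrays in blue on the right, with the array number beside each point, a line at each group's mean and the same height of scale in every panel. Both knockdown arrays lie above both controls in each panel, and MBL2 has the widest gap between its knockdown arrays, at 8.19 and 6.66.

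Genes of the terminal route differed between the knockdown arrays in opposite ways. C6, which joins C5b first, read 5.05 and 5.65 in the knockdown arrays, against 4.51 and 4.75 in the controls. Both knockdown arrays were higher and array 2 was the higher of the pair, differing from the controls by 0.72 with SE 0.206, and C6 did not pass (limma adjusted p = 0.218). C7, which anchors the growing complex in the membrane, read 5.26 and 7.02 in the knockdown arrays, against 5.29 and 5.35 in the controls. It was high in knockdown array 2 alone, at 3.25 times the control mean, and array 1 lay just below both controls. C8A and C8B encode the alpha and beta chains of C8, which starts the pore. C8A read 5.27 and 4.81 in the knockdown arrays, against 4.45 and 4.60 in the controls, 0.51 higher on the log2 scale with SE 0.168, which did not pass (limma adjusted p = 0.263). C8B read 4.73 and 4.10 in the knockdown arrays, against 3.83 and 4.00 in the controls. For both C8 chains knockdown array 1 was the highest of the 4 arrays. C8G, the lipocalin chain of C8, read 6.88 and 6.55 in the knockdown arrays, against 6.62 and 6.44 in the controls, so its groups overlapped. C5, whose cleavage starts the terminal route, differed by 0.04, with an interval from -0.19 to 0.27. C9, which forms most of the pore, read 3.31 and 3.28 in the knockdown arrays, against 3.43 and 3.30 in the controls.

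Of the soluble regulators, CFI, the protease that inactivates C3b and C4b, read 8.59 and 8.57 in the knockdown arrays, against 7.60 and 7.58 in the controls. The knockdown arrays lay 0.0215 apart and the controls 0.021 apart, and the groups did not overlap. Its log2 difference was 1.00 (SE 0.092, 95% interval 0.77 to 1.22, limma adjusted p = 0.0315). C4BPB, the beta chain of C4b-binding protein, a cofactor of factor I, read 5.61 and 5.78 in the knockdown arrays, against 5.10 and 5.16 in the controls. Both knockdown arrays were higher, with a log2 difference of 0.57 (SE 0.104) that did not pass (limma adjusted p = 0.121). C4BPA, the alpha chain of the same protein, read 6.61 and 6.21 in the knockdown arrays, against 6.33 and 6.40 in the controls. Its knockdown arrays lay on either side of the controls, with an interval of the difference from -0.32 to 0.40. CLU, which encodes clusterin, an inhibitor of the terminal complex, differed by 0.07 (interval -0.19 to 0.33).

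The membrane regulators protect cells from their own complement. CD46, a cofactor for factor I, read 10.10 and 10.00 in the knockdown arrays, against 9.72 and 9.82 in the controls. Both knockdown arrays were higher by a small amount, a log2 difference of 0.28 with a standard error of 0.10 (limma adjusted p = 0.291). CD59, which blocks assembly of the pore, read 8.22 and 8.26 in the knockdown arrays, against 8.08 and 8.04 in the controls, a log2 difference of 0.18 (interval -0.05 to 0.41). CD55, which speeds the decay of the C3 convertases, read 8.47 and 7.91 in the knockdown arrays, against 8.29 and 8.55 in the controls. Its array 2 lay below both controls and array 1 between them, and the log2 difference was -0.23 (interval -0.71 to 0.25). The receptors C3AR1, C5AR1, CR1 and CR2, which are best known on myeloid cells and B cells, had log2 differences between -0.0042 for C3AR1 and 0.08 for CR2. Control means of CR1, CR2, C3AR1, C9 and C8B lay under 4.02, the highest of the 4 lower quartiles, and since no background level is known these 5 genes are given without a factor.

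The 2 knockdown arrays lay apart more often for complement genes than for genes at large, as a description without a test. They differed by more than 0.5 on the log2 scale for 8 members (22.9%), against 5.38% of all genes. The controls did so for 1 member and for 143 of all 18417 genes, so knockdown arrays lay apart more often among all genes too. The 8 were C7, MBL2, C1S, CFB, C8B, C6, C1R and CD55. Array 1 was the higher for 23 of the 35 members (65.7%) and for 52.1% of all genes. Of the groups of neighbouring members some shared the order and others did not. All 3 of C1R, C1S and C1RL on chromosome 12 were higher in knockdown array 1, as were C8A and C8B, and the 3 C1q genes, on chromosome 1. C6 and C7 on chromosome 5 were higher in array 2, whereas C9 on the same chromosome differed by 0.03 between the arrays. The 6 regulator and receptor genes C4BPB, C4BPA, CD55, CR2, CR1 and CD46 on chromosome 1 split evenly, 3 being higher in each array. C2 and CFB, near neighbours on chromosome 6, did not share it, since C2 was alike in the arrays and CFB was 0.76 higher in array 1. With 1 array for each culture, a difference between cultures and one between hybridisations cannot be told apart.

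**Figure D3:**
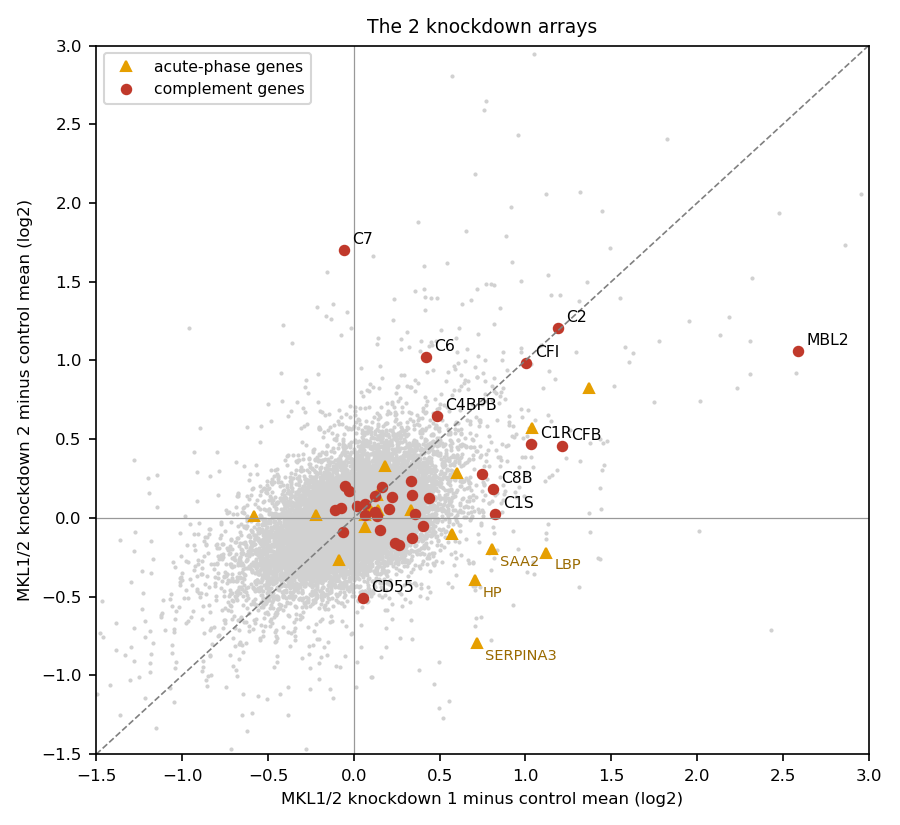
Log2 value of MKL1/2 knockdown array 1 (horizontal axis) and array 2 (vertical axis), each minus the control mean, for complement genes (red circles), acute-phase genes (orange triangles) and all other genes (grey points), with a dashed line where the arrays are equal; 22 genes lie outside the axes. C2 and CFI lie on the line, MBL2, CFB, C1R and C1S below it and C7 and C6 above it.

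Acute-phase genes, which hepatocytes induce with inflammation as they do several complement genes, also lay apart between the knockdown arrays. Of 18 measured, limma called 0 at an adjusted p of 0.05. By unadjusted limma p under 0.05, 4 were higher and 0 lower, where 6.25% and 8.04% of all genes were. Their median log2 difference was 0.15, at 0.26 in knockdown array 1 and 0.02 in array 2 when each is set against the control mean, and 0.057 once the dimmest genes were left out. The knockdown arrays differed by more than 0.5 for 7 of the 18 (38.9%), against 5.38% of all genes. SERPINA3, which encodes antichymotrypsin, read 9.17 and 7.66 in the knockdown arrays, against 8.48 and 8.43 in the controls. HP, haptoglobin, read 7.91 and 6.81 in the knockdown arrays, against 7.12 and 7.29 in the controls. Both were above the controls in array 1 and below them in array 2 (a pair picked out once the values were known). The 4 with the smallest p were HAMP, the iron hormone hepcidin, at a log2 difference of 1.10 (SE 0.182), CP, the copper carrier ceruloplasmin, at 0.81 (SE 0.163), and the inhibitor heavy chains ITIH3 at 0.44 (SE 0.130) and ITIH4 at 0.26 (SE 0.104). The part of this in the complement values was not tested.

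Of 20 other complement genes measured outside the list, limma called 0, and at an unadjusted p under 0.05 2 were higher and 0 lower, where 6.25% and 8.04% of all genes were. Both knockdown arrays lay above both controls for 8 of the 20 and below for 0, against 22.5% and 23.0% of all genes. The log2 difference was positive for 16 of the 20, with a median of 0.10. That median was 0.034 without knockdown array 1, 0.14 without knockdown array 2, 0.060 without control array 1, 0.063 with median centring and 0.084 without control array 2. C1QBP, a mitochondrial protein that binds C1q, read 10.35 and 10.52 in the knockdown arrays, against 10.14 and 10.16 in the controls. SUSD4, a membrane regulator, read 5.54 and 5.59 in the knockdown arrays, against 5.36 and 5.27 in the controls. CFHR2, a factor H-related gene with close paralogs, read 4.44 and 3.68 in the knockdown arrays, against 3.54 and 3.42 in the controls. SERPING1, the C1 inhibitor, read 11.70 and 11.44 in the knockdown arrays, against 11.18 and 11.42 in the controls.

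Genes of cytokine signalling and liver transcription factors had differences in both directions, and limma called 0 of the 24 measured. Of these 4 were higher and 3 lower at an unadjusted limma p under 0.05, where 6.25% and 8.04% of all genes were. The median log2 difference of the 24 was 0.08. That median was -0.097 without knockdown array 1 and -0.035 once the dimmest genes were left out. IL1RAP, the shared subunit of IL-1 receptors, read 8.68 and 8.76 in the knockdown arrays, against 8.13 and 8.25 in the controls, a log2 difference of 0.53 (SE 0.101). SOCS1, a feedback inhibitor of JAK kinases, differed by 0.44 (SE 0.121), whereas the kinase gene JAK1 and the NF-kB subunit gene NFKB1 both differed by -0.34 (SE 0.098 and 0.104).

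**Figure D4:**
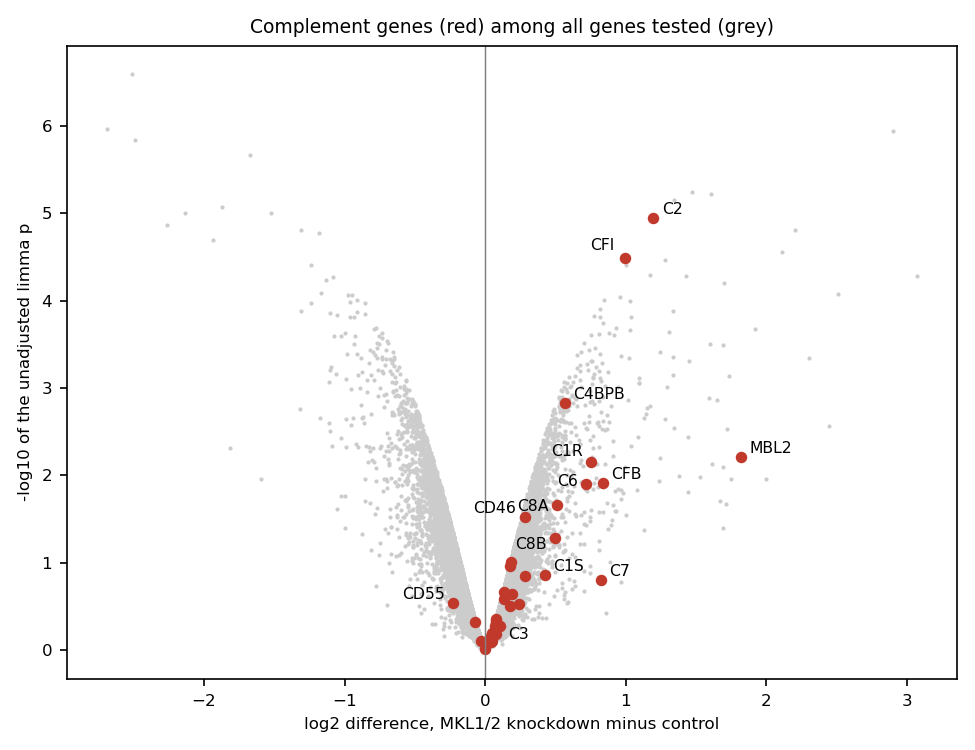
Log2 difference between MKL1/2 knockdown and control (horizontal axis) and -log10 of the unadjusted limma p (vertical axis) for the 35 complement genes (red) and all other genes tested (grey). C2 at 1.20 and CFI at 1.00 stand highest among the red points, MBL2 lies farthest right at 1.82, and CD55 at -0.23 is the farthest left.

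Genes beside C2, CFB, CFI and MBL2 were taken by position, 2 on each side by start among the genes measured, once the members' values were known. Around C2 and CFB, SLC44A4 differed by -0.03 (SE 0.131), EHMT2 by -0.14 (SE 0.123) and ZBTB12, which starts between the pair, by -0.02 (SE 0.103). On the far side of CFB, SKIC2 differed by 0.04 (SE 0.119) and DXO by 0.27 (SE 0.129). CASP6 and GAR1, the nearest on either side of CFI, differed by -0.14 (SE 0.114) and -0.12 (SE 0.111), and RRH by -0.16 (SE 0.096). MCUB, which lies beyond CASP6, read 6.19 and 6.30 in the knockdown arrays, against 5.31 and 5.55 in the controls (limma adjusted p = 0.0838). Beside MBL2, DKK1 read 9.19 and 10.38 in the knockdown arrays, against 8.80 and 8.77 in the controls, so that both knockdown arrays were higher but array 2 was the higher of the pair, unlike MBL2. CSTF2T differed by -0.47 (SE 0.119), ZWINT by -0.35 (SE 0.105) and PCDH15 by 0.03 (SE 0.093). None of these neighbours passed the adjusted threshold.

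The calls for C2 and CFI rest on both control arrays. Without control array 1 the limma adjusted p was 0.486 for C2 and 0.685 for CFI, and without control array 2 it was 0.443 and 0.606, and in both cases 0 of all genes passed in limma, with 866 and 1219 at an unadjusted p under 0.05. Without limma's sharing of variance between genes both adjusted p-values were 0.408, and again 0 genes passed, with 1840 at an unadjusted p under 0.05. The log2 differences stayed between 1.17 and 1.22 for C2 and between 0.98 and 1.01 for CFI when any 1 array was left out. Other members depended on the knockdown array. Without knockdown array 2, MBL2 differed by 2.59, CFB by 1.21, C1R by 1.03, C1S by 0.82, C8B by 0.81 and C8A by 0.75, and all 6 passed beside C2 and CFI. In that fit 8 of 35 members were called higher, where 1.84% of all genes were (339 higher and 442 lower). Without knockdown array 1, C7 differed by 1.70, MBL2 by 1.06 and C6 by 1.02, and these 3 passed beside C2 and CFI. In that fit 5 of 35 members were called higher, where 0.890% of all genes were (164 higher and 135 lower). C7 differed by -0.06 without knockdown array 2. The lone knockdown array is then assumed to vary as the controls do, which did not hold over all genes. The SD over genes of the difference between 2 arrays was 0.265 for the knockdown pair and 0.154 for the controls. Calls made without a knockdown array thus rest on a spread narrower than that of the knockdown arrays.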

How the data were processed

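RNA of 4 HuH7 cultures was hybridised to 1-colour expression arrays, 1 per culture. The authors deposited log2 expression values for 33297 probes; their range is the basis for calling them log2, and the submitters' processing notes name Partek, with background correction and normalization not given in the sources used here. Arrays have no read depth, and their number limits the precision. Single symbols stood beside 19460 probes, several beside 1754 and none beside 12083; symbols were updated through Entrez identifiers in RefSeq (GRCh38.p14; 19429 found), giving 18417 genes. Groups came from the sample titles.

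Differences (knockdown minus control) were tested across all genes with limma 3.58.1 in R 4.3.3 (lmFit, eBayes, two-sided, group alone, 2 residual and 4.12 prior degrees of freedom) and Benjamini-Hochberg adjustment over all 18417 genes at 0.05. Intervals are moderated 95% intervals, and errors of differences are moderated standard errors. The fit was tested on simulated data in which each gene had the same variance in both groups, unlike the wider knockdown spread here. All measured members are named, with the 4 genes of smallest p in each companion list; SERPINA3, HP and genes beside members were added later. Members and lists were chosen with earlier results of these data known, and no list was tested as a set. Motifs were searched in the 250 bases before each RefSeq start. Alternatives changed the variance moderation, normalization, filter on dim genes, probe choice, threshold and arrays used, or added the replicate number as a block.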

Additional observations from a re-analysis of the deposited data

How the results depend on the processing

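C2 and CFI were the 2 members called higher under 8 of the alternatives, namely an intensity trend, robust moderation, quantile renormalization, median centring, the filter on dim genes, averaged probes, the replicate block and an adjusted p threshold of 0.10. Without limma's variance moderation 0 members passed (adjusted p = 0.408 for C2 and CFI), and 0 of all genes did. In that fit 4 members were higher at an unadjusted p under 0.05, as were 818 of the 18417 genes. With 1 array left out the number called higher ran from 0 to 8, and the number higher at an unadjusted p under 0.05 from 6 to 16, against 2 and 9 with all 4 arrays. The number lower at an unadjusted p under 0.05 ran from 0 to 1 (CD55, without knockdown array 1). The median log2 difference of the members ran from 0.11 to 0.24 in these sets of 3 arrays. Among all genes, too, more were higher at an unadjusted p under 0.05 without knockdown array 2 than with all 4 arrays. Fewer were without either control array. The member counts of these fits therefore cannot be read apart from this shift over all genes. The labels do not say that replicate numbers pair the cultures, and same-numbered arrays deviated from their group means with a correlation of -0.067 across genes. With the replicate number as a block, 2 members passed as higher, where 0.299% of all genes did. In that fit 10 members were higher at an unadjusted limma p under 0.05, as were 1055 of the 18417 genes. Of 403 values of single members under the alternatives, 15 changed sign, all with an array left out and none for C2 or CFI. With 1 array left out their log2 differences ran from -0.081 to 0.57 for C1QB, -0.053 to 0.40 for C1RL, -0.17 to 0.26 for FCN2, -0.12 to 0.34 for C3, -0.11 to 0.051 for CFP, -0.058 to 1.70 for C7. The others ran from -0.16 to 0.24 for C4BPA, -0.027 to 0.17 for CLU, -0.51 to 0.051 for CD55, -0.10 to 0.092 for C3AR1, -0.075 to 0.15 for C5AR1, -0.11 to 0.26 for CR1, with -0.097 to 0.13 for the median of the cytokine and transcription factor list. The filter on dim genes left out 17 of the 35 members, with C4BPB, C6 and C8A among them. Of the members kept, 6 were higher at an unadjusted limma p under 0.05, as were 786 of the 11050 genes kept. Without a background level, values near the lower quartile of all probes may hold little signal. Over all genes, calls numbered 15 higher and 17 lower as reported, and 55 and 38 with the block, 23 and 28 with robust moderation, 21 and 27 after quantile renormalization, 18 and 24 with the trend, 19 and 27 after the dim filter, 164 and 135 without knockdown array 1 and 339 and 442 without knockdown array 2. At an unadjusted p under 0.05, median centring gave 898 higher and 1848 lower, against 1151 and 1481 as reported. The cause of these shifts was not tested.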
